A study of Mus musculus with 12 samples.

Results

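The vascular endothelial growth factor (VEGF) receptors Flt1, Kdr and Flt4, their ligands Vegfa, Vegfb and Vegfc, and the endothelial genes Pecam1, Cdh5, Tek and Angpt2 were followed in mouse mammary tumors labelled ShcA-null, set against a pool of NIC mammary tumors. These 10 genes were taken by name from the array files, where 21 of the 41174 gene probes carry their symbols. Of these 21 probes, 19 were kept because, in 4 tumors or more, tumor or pool RNA gave a signal well above background, and each of the 10 genes kept at least 1 probe. Both RNAs were well above background on all 12 arrays for 15 probes.

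Vegfa, Vegfb and Vegfc are secreted growth factors, and Flt1 (VEGF receptor 1), Kdr (VEGF receptor 2) and Flt4 (VEGF receptor 3) are the receptor tyrosine kinases that bind them. Kdr carries most of the growth and permeability signal in blood vessel endothelium, Flt1 binds Vegfa tightly and is also made as a soluble form, and Flt4 with Vegfc is best known in lymphatic vessels. Tek (Tie2) is the endothelial receptor of the angiopoietins, of which Angpt2 is a context-dependent antagonist, while Pecam1 and Cdh5 encode adhesion proteins of endothelial cell contacts. Tumors draw on this system when they recruit vessels.

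The tested samples were 8 mammary tumors labelled ShcA-null, and the control RNA was 1 pool labelled NIC tumor. ShcA is the adaptor encoded by Shc1 that couples receptor tyrosine kinases to Ras. The name NIC stands for an activated Neu (ErbB2) receptor made together with Cre recombinase in mammary epithelium, which the tumors and the pool share, so that a Cre-dependent loss would be limited to cells in which Cre was made. The labels give no age, strain, number of animals in the pool or deleted part of Shc1, and they do not say that the 8 tumors came from separate animals. The p-values therefore measure at most the spread between these 8 samples as labelled, and, with 1 pool, they leave out the spread between control tumors. Tumor and pool RNA were hybridised together on two-colour arrays. The first array of each tumor carried tumor RNA in Cy5, and 4 further arrays, labelled with the numbers of tumors 1 to 4 and listed below in that order, carried it in Cy3 (swapped arrays).

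Some arrays went against their labels or stood apart from the others. The swapped arrays labelled tumors 2, 3 and 4 correlated best, over all kept probes, with the first arrays of tumor 3 (r = 0.817, against 0.142 for its own label), tumor 4 (r = 0.392, against 0.134) and tumor 8 (r = 0.681, against 0.294). The swapped array labelled tumor 1 correlated best with its own first array (r = 0.44). Values of the 10 genes are therefore given by array, and calls also with first arrays only. Means, SDs, limma fits over 8 tumors, sign-flip tests and fits without 1 tumor still average arrays by label, unless first arrays only are named. For tumors 2, 3 and 4 they thus join arrays that did not match each other best. The 8 averaged values may therefore not be independent, although the limma and sign-flip p-values treat them so. In fits with a dye term, the consensus correlation within a tumor was -0.03 by label and 0.94 by best match. The 1 kept Shc1 probe had a log2 ratio of -2.05 on the first array of tumor 3 and of -2.22 on the swapped array labelled tumor 2, but lay between -0.03 and 0.74 on the other 10 arrays. Whether this probe lies in the deleted part is not given, so it can neither bear out nor contradict the labels of the other tumors, and "tumor" below means a tumor so labelled. Precision is limited by the number of arrays.

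Several results turn on which stretch of a gene a probe reads, so the first 30 of the 60 bases of 10 probes are shown, 5′ to 3′ as given in the scanner files, with positions on mouse build mm7. No exon annotation of that build was used here, so exon or UTR positions are not given. The 3 Flt1 probes, which did not move alike, come first, and then probes of Vegfa and Cdh5, genes whose probes disagreed in tumors 6 and 7.
Flt1 A_52_P307922 (chr5:146532609-146532668, minus strand): caccaagctttgatggcattcaaagatgtc
Flt1 A_52_P520859 (chr5:146456692-146456751, minus strand): cctgtattattccgattttaataatctaat
Flt1 A_51_P398723 (chr5:146456619-146456678, minus strand): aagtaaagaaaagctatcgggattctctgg
Vegfa A_51_P482552 (chr17:44147967-44148026, minus strand): actggattcgccattttcttatatctgctg
Vegfa A_52_P638895 (chr17:44146842-44146901, minus strand): cagatcggtgacagtcactagcttgtcctg
Cdh5 A_51_P309056 (chr8:102744103-102744162, plus strand): tccgtcaacttcaggaaaatggcttgtcga
Cdh5 A_52_P248604 (chr8:102744763-102744822, plus strand): acttattataagactctagttctcacagac
The brightest probes of Kdr, Pecam1 and Tek are shown because they are the main readings of the second VEGF receptor and of 2 endothelial markers.
Kdr A_51_P316553 (chr5:75351537-75351596, minus strand): ctactgtatcctttagaattttaacctata
Pecam1 A_51_P400868 (chr11:106790116-106791969, minus strand): aacagcgagaagatttctgagcctagtgtg
Tek A_51_P130374 (chr4:94266776-94266835, plus strand): ctctaatgtgactgtatatactgctcggag
The Pecam1 probe aligned over 1854 bases of genome, so its 60 bases are split by intervening sequence. The 3′-side Flt1 probe A_52_P520859 is rich in A and T, with a G and C content of 26.7%, against 40% for A_51_P398723, 43.3% for A_52_P307922 and a median of 40% over all probes.

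Among these genes only Flt1 was called different from the pool in the 8 tumors. The test was limma's moderated test of the mean log2 ratio of tumor over pool against 0, with Benjamini-Hochberg adjusted p under 0.05 over 30796 probes. It called 0 of the 19 member probes higher and 2 lower, both of Flt1. Over all probes it called 5.19% higher and 10.1% lower, so 2 of 19 is close to the background share. Counting genes in place of probes gave the same picture. By the brightest probe of each gene, 0 of 10 member genes were higher and 1 was lower, against 6.09% higher and 9.84% lower of 20404 genes. At an unadjusted p under 0.05, 0 member probes were higher and 3 were lower. The median log2 ratio was -0.138 over the 10 genes and -0.0185 over all genes.

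**Figure D1:**
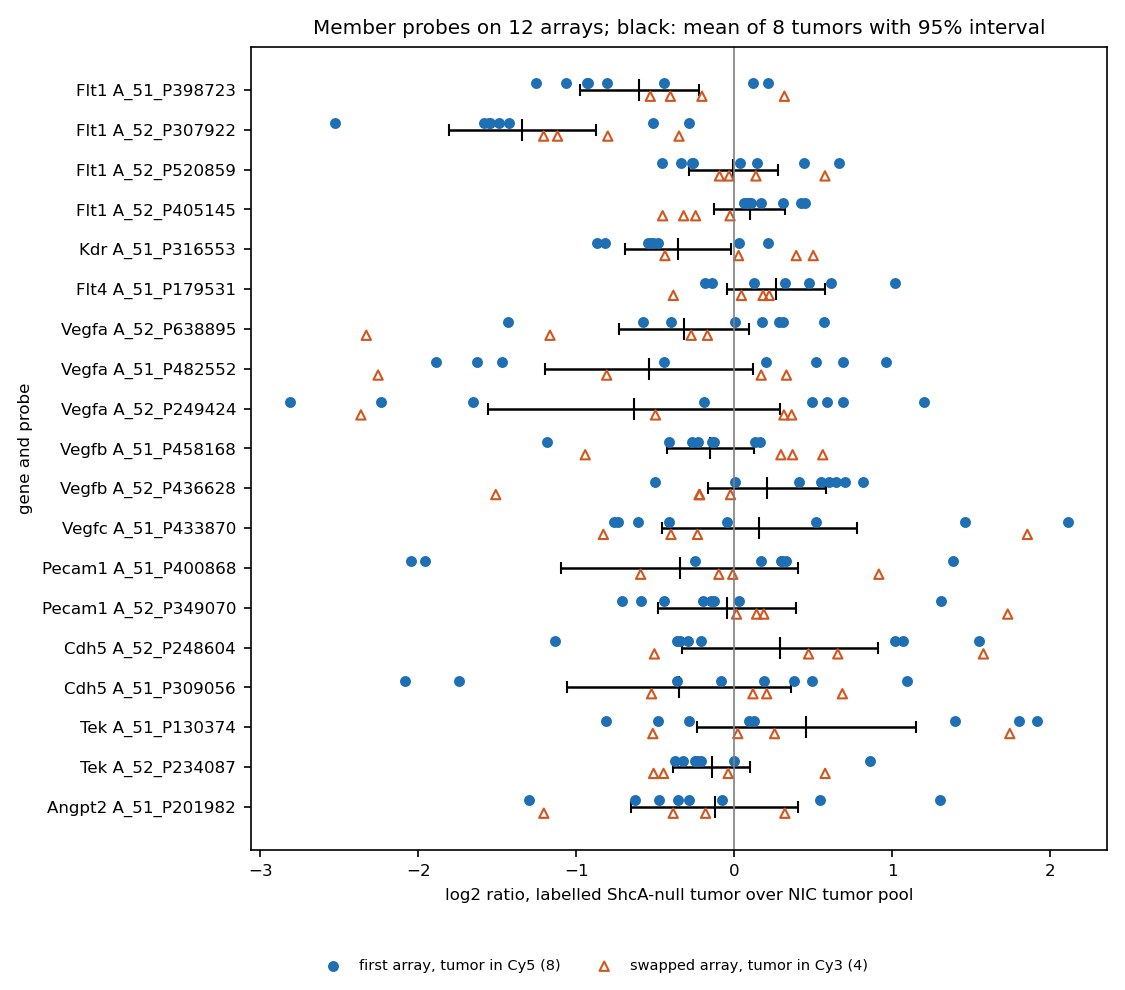
Log2 ratio of tumor over pool (x axis) for the 19 kept probes (rows). Blue points are the 8 first arrays, open triangles the 4 swapped arrays, and the black bar is the mean of 8 tumors with its 95% interval. The Flt1 probe A_52_P307922 is the only row with all 12 arrays below 0, while Vegfa, Vegfc, Pecam1, Cdh5 and Tek spread over both sides.

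Flt1 RNA was lower in the tumors by 2 of its 3 well-measured probes. The upstream probe A_52_P307922 (accession BC029674 in the file, a Flt1 cDNA clone) had a log2 ratio from -2.53 to -0.29 on the 8 first arrays, with a median of -1.52. The 4 swapped arrays, in the order of their labels, gave -0.80, -0.35, -1.21 and -1.12. Every array lay below 0, with tumor 7 farthest down and tumors 2 and 3 and the swapped array labelled tumor 2 closest to 0. Its mean was -1.34 ± 0.63 (SD, n = 8 tumors), or 2.53-fold lower than in the pool, with an adjusted p of 0.00459 (limma). The exact sign-flip permutation test over the 8 tumors gave a two-sided p of 0.00781, the smallest that 8 tumors allow. Because some swapped arrays went against their labels, the call was checked in other sets of arrays. It held with first arrays only (-1.37, adjusted p = 0.00454 in limma), where 6.05% of all probes were called higher and 12.4% lower. It also held when all 12 arrays were fitted with the dye as a term and best-matching arrays as a block (-1.17, adjusted p = 0.0142 in limma), where 2.53% were called higher and 3.64% lower. Without the first array of tumor 3 and the swapped array labelled tumor 2, which stood apart for Shc1, it was called as well (-1.38, adjusted p = 0.00372 in limma). In whole-tumor RNA, fewer cells that express a gene and less RNA per cell cannot be told apart.

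The brightest Flt1 probe, A_51_P398723, moved less. It had a log2 ratio from -1.26 to 0.21 on the first arrays, with a median of -0.87, and the 4 swapped arrays gave -0.41, 0.32, -0.53 and -0.21. Tumors 2 and 3 and the swapped array labelled tumor 2 were above 0 and all other arrays below. Its mean was -0.60 ± 0.49 (SD, n = 8), a 1.52-fold lower level, with an adjusted p of 0.0404 in limma and an exact sign-flip permutation p of 0.0234 (two-sided). This call was lost in 16 of 24 alternatives, among them leaving out tumor 1, 3, 4, 5, 6, 7 or 8 alone (adjusted p up to 0.0887 in limma), leaving out tumors 6 and 7 together (-0.42, adjusted p = 0.0754) and the dye-term fit with best-matching arrays (-0.48, adjusted p = 0.122). The direction was downward in all 24.

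The probe A_52_P520859, whose start lies 73 bases upstream of that of A_51_P398723 on the same accession (NM_010228), did not differ from 0. It ranged from -0.46 to 0.66 on the first arrays with a median of -0.11, and its mean was -0.01 ± 0.33 (SD, n = 8; adjusted p = 0.983 in limma). Yet it ran in step with the others: on each of the 12 arrays the 3 probes stood in the same order, with A_52_P307922 lowest and A_52_P520859 highest. The upstream probe lay below A_52_P520859 by a mean difference of log2 ratios of -1.34 ± 0.39 (SD, n = 8, lower in 8 of 8 tumors). Between A_52_P520859 and A_51_P398723 the mean difference was 0.60 ± 0.28 (SD, n = 8). Of 8 pairs of well-measured probes of a member gene, the 3 Flt1 pairs each had an exact sign-flip permutation p of 0.00781, or 0.0208 after Benjamini-Hochberg adjustment over the 8 pairs. No other pair passed on values averaged by label. With first arrays only, the Vegfb pair passed as well, at the same exact sign-flip p as the Flt1 pairs (0.00781, or 0.0156 adjusted). The 3 Flt1 probes thus gave 3 different sizes of change on the same arrays, also where 2 of them lie next to each other. The remaining kept Flt1 probe, A_52_P405145, was well above background in tumor RNA on 5 arrays only, with a mean of 0.10 (adjusted p = 0.534 in limma), and A_52_P650151 was not kept.

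**Figure D2:**
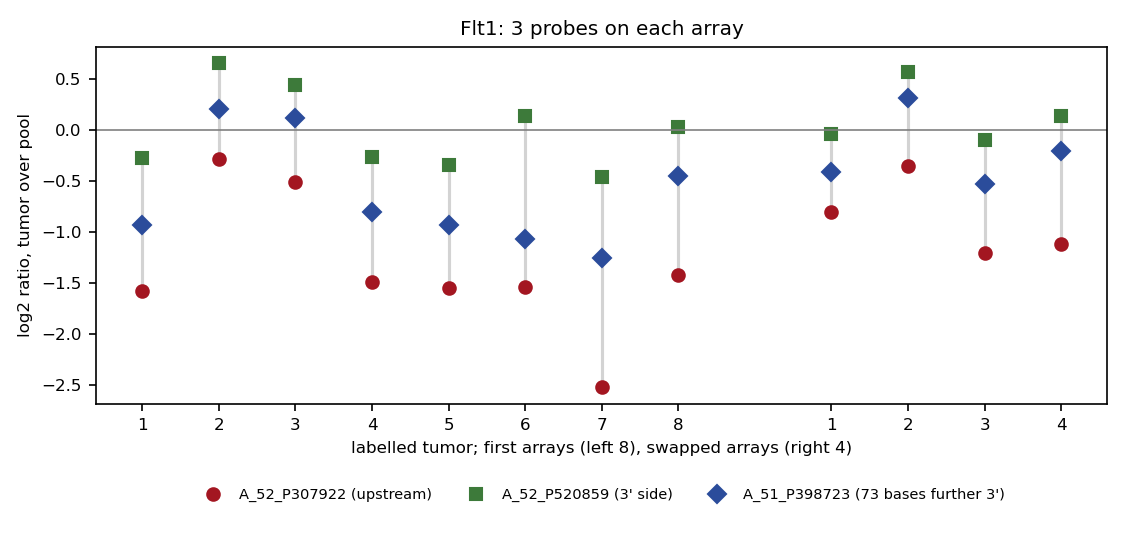
Log2 ratio of tumor over pool (y axis) of 3 Flt1 probes on each of the 12 arrays (x axis, first arrays left and swapped arrays right); grey lines join the probes of 1 array. On each array the upstream probe (circle) is lowest and A_52_P520859 (square) highest, with tumor 7 at -2.53 and -0.46.

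Kdr, the main signalling receptor for Vegfa, was below the pool on most first arrays but was not called. Its probe A_51_P316553 is printed at 10 spots, whose SD within an array was 0.0377 to 0.0719. It had a log2 ratio from -0.87 to 0.21 on the first arrays with a median of -0.52, and the 4 swapped arrays gave 0.39, 0.50, 0.03 and -0.44. The first arrays of tumors 2 and 3 lay just above 0 and the other 6 below, while 3 of the 4 swapped arrays lay above. The mean over 8 tumors was -0.36 ± 0.43 (SD, n = 8), with a 95% half-width of 0.34 and an adjusted p of 0.139 in limma. With first arrays only it was -0.44 (adjusted p = 0.0583 in limma), and with swapped arrays only 0.12 (adjusted p = 0.692). The second Kdr probe, A_52_P478193, was well above background on 2 arrays in either RNA and was not kept.

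Flt4, the receptor of the lymphatic growth factor, was read by 1 dim probe, A_51_P179531. Its log2 ratio ran from -0.18 to 1.02 over 7 first arrays, the spot of tumor 1 being left out as an outlier, and its mean was 0.26 ± 0.38 (SD, n = 8; adjusted p = 0.23 in limma). Tumor 7 was the highest and tumors 3 and 6 lay below 0. The call did not change under any alternative that kept the probe.

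Vegfa, the ligand of Flt1 and Kdr, was not called by any of its 3 probes. The 3′-most and brightest probe, A_52_P638895, had a mean log2 ratio of -0.32 ± 0.55 (SD, n = 8; adjusted p = 0.266 in limma), with first arrays from -1.43 to 0.57 and a median of 0.09. The 4 swapped arrays gave -0.27, -2.33, -0.17 and -1.17. The lowest values belonged to the swapped array labelled tumor 2 and to the first array of tumor 3, the same 2 arrays on which Shc1 was low. Probes A_51_P482552 and A_52_P249424, which both lie upstream of it, the first by 1125 bases on the genome, had means of -0.54 ± 0.94 (adjusted p = 0.244 in limma) and -0.63 ± 1.34 (adjusted p = 0.324 in limma; SD, n = 8 for both). In tumor 3 the 3 probes agreed, at -1.65, -1.47 and -1.43 from the upstream to the 3′ end. In tumors 6 and 7 they did not.

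Vegfb, a ligand of Flt1, was not called, and the difference between its 2 probes changed sign with the dye orientation. Probe A_51_P458168 had a mean log2 ratio of -0.15 ± 0.32 (SD, n = 8; adjusted p = 0.425 in limma), and A_52_P436628, which starts 285 bases upstream, one of 0.21 ± 0.49 (SD, n = 8; adjusted p = 0.424 in limma). The upstream probe lay above the other on all 8 first arrays, by 0.42 to 1.05, and below it on all 4 swapped arrays, by -0.59 to -0.51. Slide and dye orientation coincided for these 4 arrays and cannot be told apart. Both probes were lowest in tumor 3 (-1.18 and -0.50) among the first arrays, and on the swapped array labelled tumor 2 (-0.94 and -1.51) among the swapped ones.

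Vegfc, the ligand of Flt4, did not differ on average but varied strongly. Its log2 ratio ran from -0.76 to 2.11 on the first arrays with a median of -0.23, and the 4 swapped arrays gave -0.23, 1.86, -0.40 and -0.83. Tumors 3, 6 and 7 and the swapped array labelled tumor 2 were above 0 and all other arrays below. The mean was 0.16 ± 0.87 (SD, n = 8; adjusted p = 0.727 in limma).

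The endothelial adhesion genes gave no common shift. Pecam1 (A_51_P400868, 10 spots with an SD of 0.033 to 0.102 within an array) had first arrays from -2.05 to 1.38 with a median of 0.23, and the 4 swapped arrays gave -0.01, 0.92, -0.10 and -0.59. Tumors 6 and 7 lay far below the rest and tumor 3 highest. The mean was -0.35 ± 1.07 (SD, n = 8; adjusted p = 0.509 in limma), the widest spread among the 10 genes. A second probe under the symbol Pecam1, A_52_P349070, is described in the file as a clone of a disintegrin and metalloprotease, and was well above background in tumor RNA on 4 arrays (mean -0.05, adjusted p = 0.889 in limma).

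Cdh5, which encodes VE-cadherin, was read by 2 probes whose starts lie 660 bases apart and whose means had opposite signs. The 3′-side and brighter probe, A_52_P248604, averaged 0.29 ± 0.88 (SD, n = 8; adjusted p = 0.505 in limma), and the upstream probe, A_51_P309056, averaged -0.35 ± 1.01 (SD, n = 8; adjusted p = 0.474 in limma). On the first arrays of tumors 6 and 7 the 3′-side probe gave 1.55 and 1.07 and the upstream probe -2.08 and -1.75. In tumor 3 they gave 1.02 and 1.09, and on the swapped array labelled tumor 2 they gave 1.58 and 0.68. Among the first arrays, tumors 3, 6 and 7 were thus the only ones above 0 by the 3′-side probe, while tumors 6 and 7 were the lowest by the upstream probe.

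Tek, the angiopoietin receptor, and Angpt2, one of its ligands, were not called. Tek (A_51_P130374) ran from -0.81 to 1.92 on the first arrays with a median of 0.11, and the 4 swapped arrays gave 0.02, 1.74, 0.26 and -0.52. Tumors 3, 6 and 7 and the swapped array labelled tumor 2 stood above 1 and no other array above 0.26. The mean was 0.45 ± 0.99 (SD, n = 8; adjusted p = 0.345 in limma). Angpt2 averaged -0.12 ± 0.73 (SD, n = 8; adjusted p = 0.746 in limma), with tumor 6 highest at 1.30 and tumor 3 lowest at -1.30. The second Tek probe (A_52_P234087) was well above background in tumor RNA on 3 arrays, with a mean of -0.14 (adjusted p = 0.4 in limma).

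The disagreement between probes of Vegfa and Cdh5 in tumors 6 and 7 was also present outside these genes. From the upstream to the 3′ end, the Vegfa probes gave -2.82, -1.63 and 0.31 in tumor 6 and -2.24, -1.89 and -0.40 in tumor 7. The upstream minus 3′-side difference for the outermost Vegfa pair was -3.12 in tumor 6 and -1.84 in tumor 7, against -0.22 to 0.63 on the other first arrays, and for Cdh5 -3.63 and -2.81 against 0.08 to 0.86. Over 2634 other RefSeq transcripts with 2 probes that were measured on every array and lay 300 to 20000 bases apart, the median of this difference was -1.15 in tumor 6 and -0.59 in tumor 7. The other 6 first arrays had medians of 0.04 to 0.43, and the swapped arrays of -0.12 to 0.17. These 2 arrays therefore lay on the other side of 0 from most others. The difference was larger than 1 in size for 62.5% of these transcripts in tumor 6 and 43.2% in tumor 7, against at most 20.9% on any other array. Tumors 6 and 7 thus departed from the other arrays by probe position in the same direction as Vegfa and Cdh5. Without these tumors, a setting added after seeing the data, Pecam1 averaged 0.21, against -0.35 with all 8, and Tek 0.05, against 0.45. Likewise the 3′-side Cdh5 probe averaged -0.05, against 0.29, and the upstream one 0.17, against -0.35. The sign of Pecam1 and of both Cdh5 probes thus turned, and none of these values was called (adjusted p = 0.305 to 0.892 in limma, n = 6). Flt1 probe A_52_P307922 was still called lower without tumors 6 and 7 (-1.11, adjusted p = 0.00369 in limma).

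**Figure D3:**
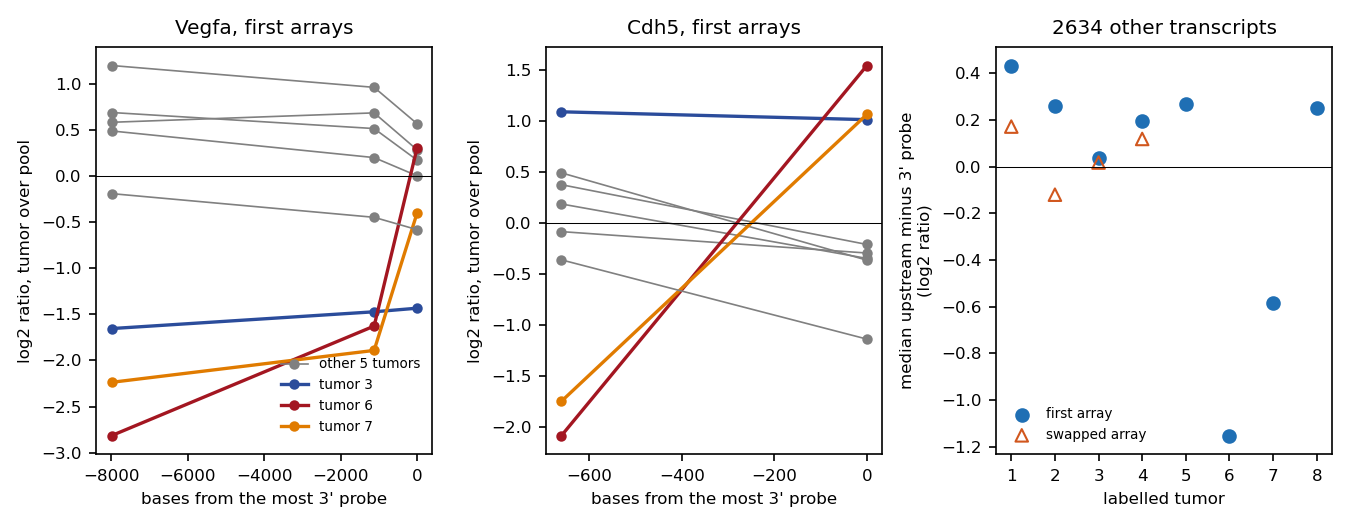
Left and middle: log2 ratio of tumor over pool (y axis) against the distance in bases from the most 3′ probe (x axis) for Vegfa and Cdh5 on the 8 first arrays. Right: median difference between the upstream and the 3′ probe over 2634 other transcripts, by labelled tumor. Tumors 6 and 7 climb toward the 3′ end of both genes and have the lowest medians, -1.15 and -0.59.

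The other endothelial genes gave no call. Of 30 further endothelial genes, among them Vwf, Erg, Emcn and Sox17, 0 were called higher and 0 lower by limma (at an unadjusted p under 0.05, 3 higher and 1 lower), with a median log2 ratio of 0.12, beside 6.09% higher and 9.84% lower of all genes. With first arrays only, Rasip1 and Egfl7 were called higher (2 of 30, named after their values were seen), beside 6.05% higher of all probes in that setting. Neither was called with a dye term and the best-matching arrays as block (adjusted p = 0.461 and 0.659 in limma). By array the list moved widely. On the first array of tumor 3, 29 of 30 lay above 0 and 18 above 1, with a median of 1.13. On the swapped array labelled tumor 2 it was 27 above 0 with a median of 0.89. Tumor 8 and its best match, the swapped array labelled tumor 4, stood at the other end with 24 of 30 below 0 on each. In tumor 6, 11 genes were above 1 and 6 below -1, and in tumor 7, 6 were above 1 and 1 was below -1. The list's summed intensity was 61100 to 229000 in tumor RNA and 80800 to 111000 in the pool, and 29 of its 30 genes were well above background in tumor RNA on all arrays.

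**Figure D4:**
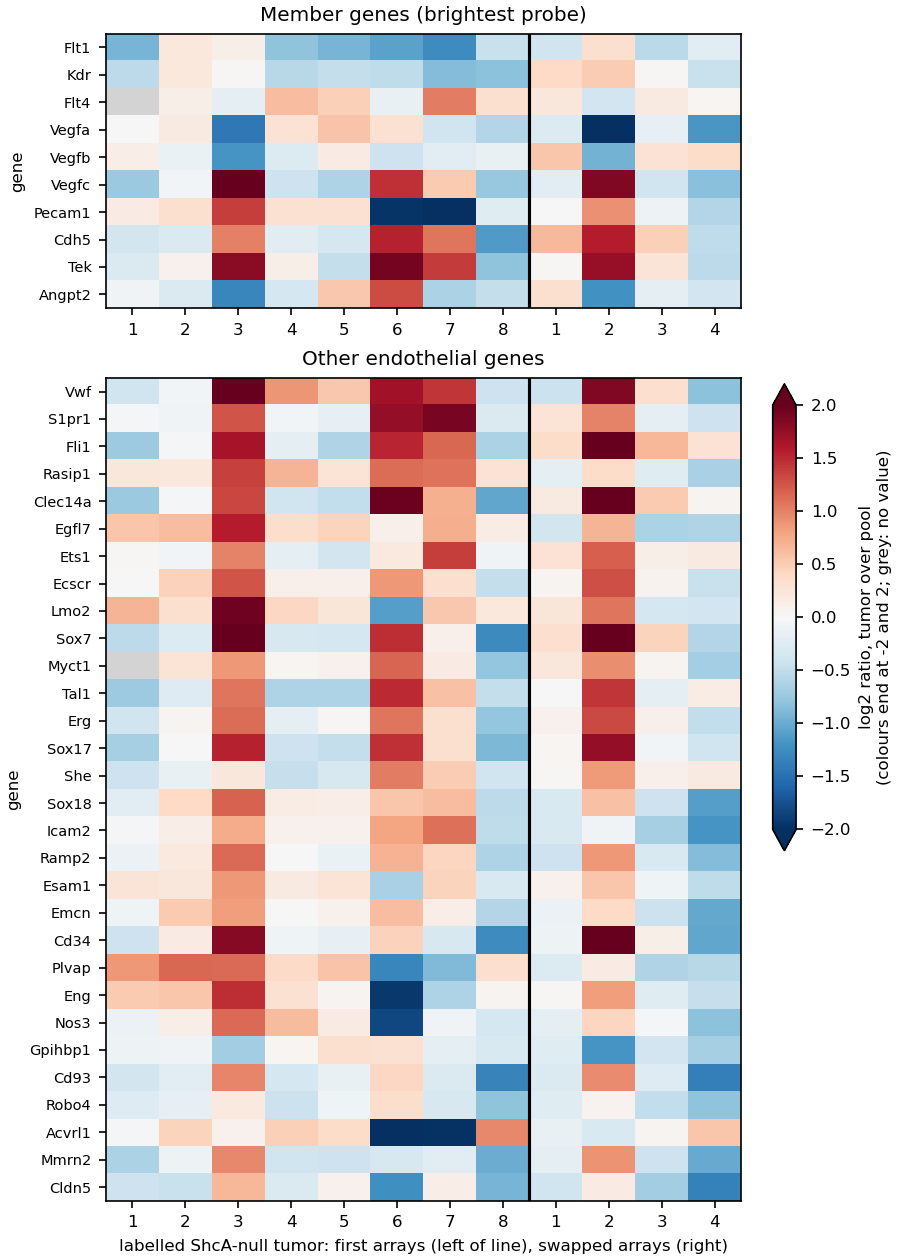
Log2 ratio of tumor over pool (colour, ending at -2 and 2) for the 10 member genes by their brightest probe (top) and 30 other endothelial genes (bottom) on the 8 first arrays (left of the line) and the 4 swapped arrays (right). Most endothelial genes are red on the first array of tumor 3 and the swapped array labelled tumor 2, and blue in tumor 8 and the swapped array labelled tumor 4.

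The closest relatives of these genes were not called either with all arrays and loess. Among other ligands and co-receptors of the VEGF family (4 genes, 0 called in either direction), Pgf, a ligand of Flt1, averaged -0.95 ± 0.95 (SD, n = 8; adjusted p = 0.0607 in limma). Pgf was called lower on the authors' deposited values (-0.86, adjusted p = 0.0459 in limma) and without tumor 1 (adjusted p = 0.0491). The co-receptors Nrp1 and Nrp2 averaged -0.06 ± 0.93 and 0.03 ± 0.55, and Figf (Vegfd) -0.21 ± 0.92 (SD, n = 8). Of the angiopoietin and Tie genes (4 genes, 0 called), the Tek agonist Angpt1 averaged 0.47 ± 0.60, Angpt4 0.21 ± 0.75, the receptor Tie1 0.13 ± 0.48, and the vascular phosphatase Ptprb -0.49 ± 0.73 (SD, n = 8, and n = 7 for Ptprb). Ptprb was called lower without the first array of tumor 3 and the swapped array labelled tumor 2 (-0.65, adjusted p = 0.0456 in limma), a setting added after seeing the data. Of 11 intermediates of VEGF receptor signalling, 0 rose and 1 fell: Pik3ca, the catalytic subunit of a PI3-kinase (-0.45 ± 0.35, SD, n = 8, adjusted p = 0.0473 in limma). This is 1 of 11, beside 9.84% lower of all genes, and the call was lost in 18 of 24 alternatives, among them median centring (-0.10, adjusted p = 0.757) and 7 of the 8 fits that left out 1 tumor.

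Single genes of other vascular lists passed the test, where 6.09% higher and 9.84% lower of all genes is the background. Over all 16 lists, cell markers included, 14 genes were called in either direction, and 11 of them kept the call with first arrays only. As a share of the genes tested, this is not above the background of both directions together, and 9 of the 16 lists had no call. Of 8 tested angiogenesis inhibitors, the thrombospondin Thbs2 rose (1.31 ± 0.29, SD, n = 8, adjusted p = 5.32e-04 in limma), higher in 8 of 8 tumors and called in 22 of 24 alternatives. Its first arrays ran from 0.91 to 1.78, and the 2 swapped arrays with a value, those labelled tumors 2 and 4, gave 0.61 and 0.28. The brightest probe of Thbs1, the related inhibitor, fell (-1.94 ± 1.08, SD, n = 8, adjusted p = 0.00698 in limma) and was called in 23 of 24 alternatives, while its other kept probes averaged -0.04 and -0.30.

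Of 10 tip cell genes, 1 was called higher and 1 lower. The netrin receptor Unc5b fell (-1.59 ± 0.93, SD, n = 8, adjusted p = 0.00856 in limma) and was called in 21 of 24 alternatives. Its mean by labelled tumor was below 0 in all 8, with tumor 2 at -0.009. By array, however, the first arrays ran from -3.11 to 0.27, and the swapped arrays from -1.99 to -0.29. The chemokine receptor Cxcr4 was called higher (0.89 ± 0.48, SD, n = 8, adjusted p = 0.00866 in limma), but not with first arrays only (0.63, adjusted p = 0.0968). Its first arrays ran from -0.79 to 1.31, and the swapped arrays from 0.48 to 1.58. The other kept Cxcr4 probe averaged 0.365. Of 3 tested endothelial adhesion genes, Selp (P-selectin) was called higher (0.71 ± 0.57, SD, n = 8, adjusted p = 0.0343 in limma), and Icam1 (0.77) and Vcam1 (-0.17) were not called. The Selp call was lost in 16 of 24 alternatives, among them the dye term with best-matching arrays as block (0.54, adjusted p = 0.181) and 6 of the 8 fits that left out 1 tumor.

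Among targets of hypoxia, the main known inducer of Vegfa, 1 of 13 was called higher and 3 lower, beside 6.09% and 9.84% of all genes. Ndrg1 rose (1.02 ± 0.55, SD, n = 8, adjusted p = 0.00783 in limma), and was called in 22 of 24 alternatives. The mitophagy gene Bnip3 fell (-1.74 ± 1.22, SD, n = 8), as did the brightest probe of the kinase Pdk1 (-0.70 ± 0.32), with adjusted p of 0.0163 and 0.00714 in limma. The other kept Pdk1 probe averaged -0.007. The glucose carrier Slc2a1 was called lower (-0.61 ± 0.51, SD, n = 8, adjusted p = 0.0431 in limma). It differed, however, between first and swapped arrays, where dye orientation and slide cannot be told apart. All 8 first arrays gave values below 0 (-1.44 to -0.52), whereas all 4 swapped arrays gave values above 0 (0.22 to 0.75), and its call was lost in 17 of 24 alternatives. With the dye term and best-matching arrays as block, Slc2a1 (-0.26, adjusted p = 0.298) and Pdk1 (-0.58, adjusted p = 0.1) were not called. The list's median was -0.18, beside -0.0185 over all genes, and with median centring 0 of the 13 were called lower.

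Markers of other cells were also high on the arrays where most endothelial genes were high. The 6 fibroblast markers (0 called) had a median log2 ratio of 3.77 on the first array of tumor 3 and of 2.88 on the swapped array labelled tumor 2, against -1.46 to 0.72 on the other 10 arrays. Their summed intensity was 95900 to 1050000 in tumor RNA and 59900 to 398000 in the pool. A gene dropped as an outlier on an array is missing from the sum of that array, which can widen such ranges. The 8 macrophage markers stood at 1.83 and 1.58 on those 2 arrays, and their summed intensity was 82500 to 329000 in tumor RNA and 78100 to 111000 in the pool. Of them 1 was called higher, the complement gene C1qc (0.50 ± 0.36, SD, n = 8, adjusted p = 0.0341 in limma), beside 6.09% higher of all genes. Its call was lost in 13 of 24 alternatives, among them first arrays only (0.55, adjusted p = 0.0847) and 5 of the 8 fits that left out 1 tumor. The 6 adipocyte markers (0 called) were highest in tumor 7, with a median of 1.68, and lowest on the swapped array labelled tumor 4, at -2.02; they summed to 44900 to 256000 in tumor RNA and 60300 to 140000 in the pool.

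Epithelial markers were called higher for 3 of 7 genes, the keratins Krt5 (1.29 ± 0.68; n = 7, with no value in tumor 6), Krt8 (0.84 ± 0.57, n = 8) and Krt14 (0.83 ± 0.63, n = 8), with adjusted p of 0.00963, 0.0183 and 0.0262 in limma (SD throughout), beside 6.09% higher of all genes. With the dye term and best-matching arrays as block none of the 3 was called (adjusted p = 0.0886, 0.514 and 0.282 for Krt5, Krt8 and Krt14). That fit did call 1 of the 7 markers higher, Cdh1 (0.70, adjusted p = 0.0118 in limma), beside 2.53% higher of all probes. Cdh1 was named after its values were seen, and was not called in the 8 tumors (0.43, adjusted p = 0.0986 in limma). With first arrays only, neither Krt14 (adjusted p = 0.0808) nor Cdh1 (0.15, adjusted p = 0.482) was called. Krt8 differed between first and swapped arrays, at 0.58 to 2.11 on the first arrays and -0.99 to -0.48 on the swapped arrays. Dye orientation and slide cannot be told apart there. Krt18, which pairs with Krt8 and was named after its values were seen, was called higher with first arrays only (1.58, adjusted p = 0.0057) and lower with swapped arrays only (-1.68, adjusted p = 0.021). In swapped arrays only, 1 epithelial marker was called higher and 3 lower, Krt8 among the 3, beside 1685 higher and 1149 lower of 30748 probes. The markers' summed intensity was 190000 to 510000 in tumor RNA and 88900 to 399000 in the pool. The lists of pericyte (11 tested), lymphatic (5), T cell and leukocyte (6) and platelet (5) genes had 0 called in either direction, with medians of 0.17, 0.31, 0.75 and -0.05. With first arrays only, the pericyte gene Mcam (adjusted p = 0.0455) and the lymphatic gene Reln (adjusted p = 0.0499) were called higher, beside 6.05% higher of all probes. Both were named after their values were seen. With the dye term and best-matching arrays as block, Mcam was called as well (0.59, adjusted p = 0.0384 in limma), beside 2.53% higher of all probes. Reln was not called there (0.82, adjusted p = 0.0785). The part of cell makeup in the Flt1 result was not tested.

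Other genes were ranked over the 8 first arrays by Pearson r with the mean standardized profile of Kdr, Flt1, Tek, Cdh5 and Pecam1. These 5 genes did not move alike. Between them r was 0.976 for Cdh5 and Tek and 0.822 for Flt1 and Kdr, but -0.461 for Pecam1 and Cdh5 and -0.357 for Pecam1 and Tek. In tumors 6 and 7, Pecam1 stood at -1.96 and -2.05 and Tek at 1.92 and 1.40. The profile is therefore a mean of unlike patterns. This profile was highest in tumor 3 (1.23) and tumor 2 (0.58) and lowest in tumor 8 (-0.65). Over 16479 other genes, the 5 closest were Utp11 (r = 0.986), the clones AK043066 (0.98), AK039509 (0.974) and AK038463 (0.969), and the protocadherin Pcdha9 (0.972). Of these, AK039509 (-1.64 ± 0.52, adjusted p = 0.00113) and AK038463 (-0.67 ± 0.46, adjusted p = 0.0229) were called lower in the 8 tumors by limma (SD, n = 8). Among the members, r was 0.871 for Kdr, 0.744 for Vegfc, 0.73 for Flt1, 0.566 for Tek, 0.482 for Pecam1 and 0.446 for Cdh5, of which all but Vegfc help to make the profile. It was -0.35 for Angpt2, -0.476 for Vegfa and -0.783 for Vegfb. These values describe 8 arrays that share the pool and the dye.

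**Figure D5:**
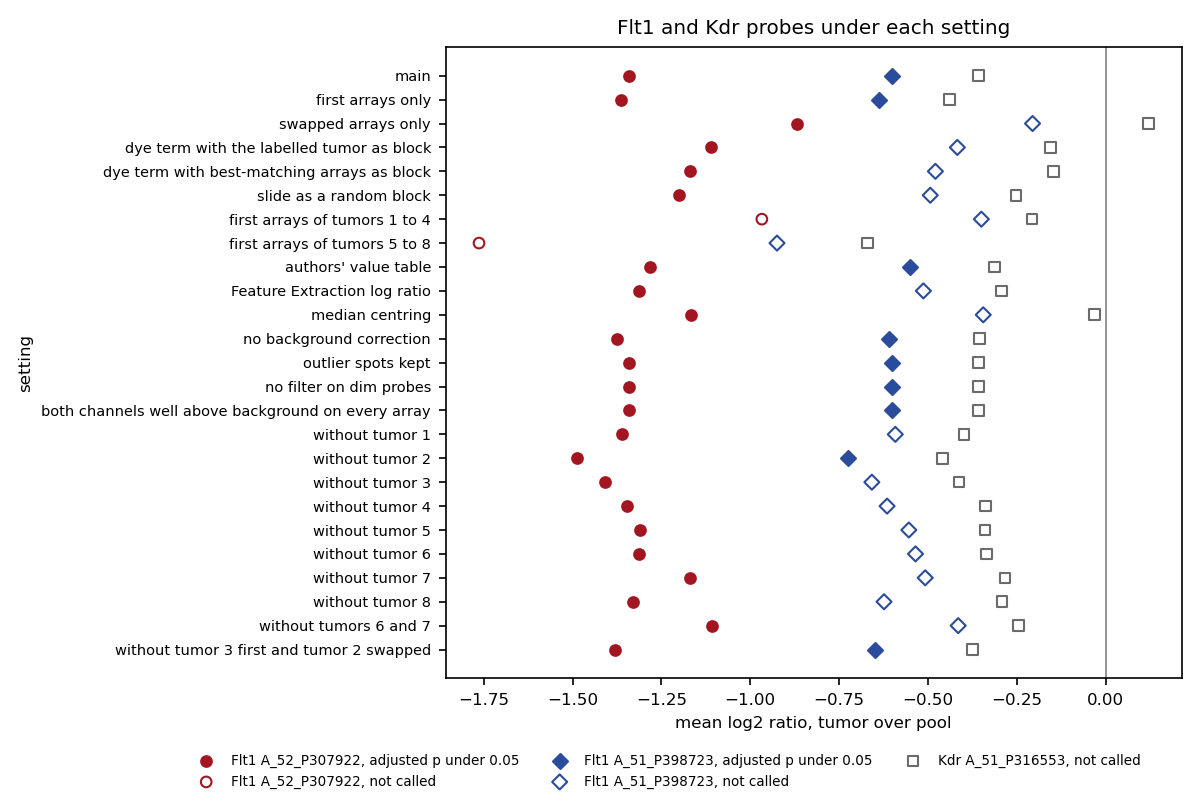
Mean log2 ratio of tumor over pool (x axis) of 2 Flt1 probes and the Kdr probe under the analysis used ("main") and 24 alternatives (rows). Filled symbols have an adjusted p under 0.05. The Flt1 probe A_52_P307922 lies between -1.76 and -0.87 and is filled in all rows but the 2 within-slide fits, A_51_P398723 is filled in 9 rows, and Kdr in none.

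Across the settings plotted for Flt1 and Kdr, the upstream Flt1 probe kept its sign in all and its call in 23 of 25. It was not called among the first arrays of tumors 1 to 4 alone (-0.97, adjusted p = 0.0953 in limma) or of tumors 5 to 8 alone (-1.76, adjusted p = 0.0689), the 2 slides that held them. Few probes of any gene passed there: 611 of 30426 were called lower in tumors 1 to 4, and 0 of 30606 in tumors 5 to 8. On the authors' deposited values it had a mean of -1.28 (adjusted p = 0.00162 in limma), and A_51_P398723 one of -0.55 (adjusted p = 0.0402). No alternative called any other member probe.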

How the data were processed

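RNA of 8 tumors labelled ShcA-null and of 1 NIC tumor pool was measured on 12 two-colour Agilent arrays. Per the labels' protocols, an RNeasy Midi kit was used for isolation, and 500 ng went into a single T7 amplification with amino allyl labelling. Scanning output came from Feature Extraction 9.5.3.1, per the file headers, and the mean foreground and median background intensities used here were deposited without normalization. Per the file headers, a deposited log10 ratio sets the processed red signal over the green one. Other deposited values are flags for outlier, saturated and well-above-background spots. The authors' deposited value table is on the log2 scale and runs as tumor over pool on every array, as its slope against the scanner ratio showed (0.758 to 0.797 on first arrays, -0.748 to -0.715 on swapped arrays). It served as an alternative; its normalization and centring are not stated in the labels or headers.

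Intensities were background-corrected (normexp, offset 50) and loess-normalized within arrays with control spots at weight 0 (limma 3.58.1, R 4.3.3). Spots flagged as outliers were dropped (0.47% to 13.7% of an array). Ratios were turned to tumor over pool, spots of 1 probe were averaged, and arrays labelled with 1 tumor were averaged, which left 30838 kept probes and 8 tumors. The pool counts as 1 control sample, so each mean log2 ratio was tested against 0 (lmFit, eBayes, Benjamini-Hochberg), with an exact sign-flip permutation test beside it; 30796 probes had enough values. A gene with several kept probes was read by its brightest one. Summed intensities of lists are of channel levels after loess and Aquantile scaling. They leave out genes whose spots were dropped as outliers on an array, so sums of different arrays can cover different genes. The procedure was tested on simulated data. Figures were drawn with matplotlib.

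The members, the 16 gene lists and the alternatives were chosen with earlier results of these arrays known. Named were all member probes, up to 3 called genes a direction from each list, all genes of lists under 5 genes, and the 5 genes most like the endothelial profile, plus the exceptions named as such. The alternatives covered the arrays used, dye and slide terms, values, background correction, normalization, filters and leaving out each tumor. The settings without tumors 6 and 7 and without the arrays that carried low Shc1 were added after seeing the data. The sequence of 1 Vegfa probe is not reported here.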

Additional observations from a re-analysis of the deposited data

How the results depend on the processing

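The analysis used called 2 of 19 member probes and 1 of 10 member genes lower. It called 1 probe and 0 genes lower with swapped arrays only, with a dye term and either the labelled tumor or the best-matching arrays as block, with the slide as a random block, with the Feature Extraction log ratio, with median centring, and without tumors 6 and 7 (added after seeing the data). In these settings the probe still called was Flt1 A_52_P307922, and the lost one was A_51_P398723 (log2 ratio -0.21 to -0.51, adjusted p 0.0645 to 0.46 in limma). In the first arrays of tumors 1 to 4 alone and of tumors 5 to 8 alone, 0 probes and 0 genes were called lower. Over all probes, tumors 1 to 4 alone gave 489 higher and 611 lower of 30426. Tumors 5 to 8 alone gave 0 of 30606 in either direction, so the lack of a call there is not particular to the members. Leaving out 1 tumor at a time gave 1 to 2 probes and 0 to 1 genes lower, and 2 and 1 only without tumor 2. No setting called a member higher. No called value of a member probe changed direction, while member values that were not called changed sign in 47 of the comparisons, and the cause was not tested.

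Of the 30 other endothelial genes, 2 were called higher with first arrays only, 2 with median centring and 1 without tumors 6 and 7, against 0 in the analysis used. Over all probes, these settings called 1859 of 30708, 2788 of 30796 and 3572 of 30792 higher, in that order. Leaving out 1 tumor at a time gave 0 to 1 called higher, 1 only without tumor 6, where 2183 of 30796 probes were called higher. In the same list 1 was called lower (against 0) with a dye term and the labelled tumor as block, and 1 without the first array of tumor 3 and the swapped array labelled tumor 2. These 2 settings called 3775 of 30646 and 2908 of 30731 probes lower. Median centring moved the median of all probes to 0.101, against -0.0504 after loess, and that of the 10 members to 0.234, against -0.138. Relative to the median of all probes, Flt1 A_52_P307922 was at -1.27 with median centring and at -1.29 after loess. Low signal limits Flt4, the Flt1 probes A_52_P405145 and A_52_P650151, and the second probes of Kdr, Pecam1 and Tek.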

Other observations

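Leaving out tumors 6 and 7, a setting added after seeing the data, changed which other vascular genes were called, and these genes were named after their values were seen. Over all probes, limma then called 3572 higher and 4776 lower, against 1599 and 3100 with all 8 tumors. Acta2, a smooth muscle and pericyte actin, was called higher (0.97, adjusted p = 0.0113), against 0.04 ± 1.77 (SD, n = 8; adjusted p = 0.964) with all tumors, where tumors 6 and 7 stood at -2.88 and -2.56. Pdgfb, which recruits pericytes, was called higher as well (0.57, adjusted p = 0.0242), and so was the Tek agonist Angpt1 (0.67, adjusted p = 0.0399). The adipocyte genes Cidec (-1.08, adjusted p = 0.016) and Plin1 (-0.77, adjusted p = 0.0394) were called lower. None of these was called with all 8 tumors in limma, and the cause was not tested.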
